A study of Mus musculus with 4 samples.

Results

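Candidate binding sites of MEIS proteins were taken from a chromatin immunoprecipitation sequencing (ChIP-seq) experiment. The part used here came from dorsal root ganglia (DRG) of mouse embryos at embryonic day 16 (E16). Whether MEIS proteins bind at any single site was not tested. The regions were all peaks that 2 peak callers listed when the E16 ChIP library was set against the E16 input library. MACS2 listed 419 peaks and MACS 1.4 listed 1278, together 1697 of the 2843 peak regions of the series, whose remaining 1146 came from adult ganglia. The ChIP library came from C57BL/6 ganglia and an antibody labelled Meis1/2/3 (Millipore, 05–779), and the input library was non-precipitated DNA from ganglia of the same strain and stage, with no antibody. The series title names Meis2 alone. Genotype, sex and the number of pooled embryos are not given in the sources used here. Each side held 1 library, so no difference below has a replicate error or a p-value, and all intervals cover counting error only. The labels call the cells sensory neurons, but ganglia also hold satellite glia, Schwann cells, fibroblasts, vessels and blood cells, and no sort was named. The files hold no expression values against which that label could be checked. A site occupied in few cells and a site occupied weakly in many cells cannot be told apart in such chromatin.

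MEIS1, MEIS2 and MEIS3 are transcription factors of the TALE homeodomain class, which carry an extended loop in the homeodomain. They bind DNA together with PBX proteins, which belong to the same class, and with HOX proteins, and the core they recognise is usually written TGACAG. In sensory neurons of the ganglia, which carry touch, position, temperature and pain to the spinal cord, Meis2 is known for a role in neurons of touch. Sites of these factors often lie in enhancers far from the gene start. A peak nearest to a gene is therefore only a position, and no gene named below was shown to be a target.

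Sequence was at hand for gene starts only, as windows of 250 bases before to 50 bases after the start (RefSeq, GRCm38.p6, the coordinates of mm10). MACS2 peaks overlapped 3 of these windows and MACS 1.4 peaks overlapped 17. The TGACAG core, on either strand, lay inside the overlapping part of a peak in the windows of 3 genes, whose bases before the start are shown because they are the places where a listed peak and the core could be read together. Capitals mark the core, each sequence runs 5′ to 3′ on the strand of its gene, and the last base is the one before the start site.
Mmp23, chr4:155653385-155653634, minus strand: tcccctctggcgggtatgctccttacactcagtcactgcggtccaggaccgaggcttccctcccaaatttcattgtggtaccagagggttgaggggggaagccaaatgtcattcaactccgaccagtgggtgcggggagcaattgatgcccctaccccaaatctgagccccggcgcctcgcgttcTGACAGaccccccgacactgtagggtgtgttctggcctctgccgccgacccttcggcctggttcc
Tdrd1, chr19:56830462-56830711, plus strand: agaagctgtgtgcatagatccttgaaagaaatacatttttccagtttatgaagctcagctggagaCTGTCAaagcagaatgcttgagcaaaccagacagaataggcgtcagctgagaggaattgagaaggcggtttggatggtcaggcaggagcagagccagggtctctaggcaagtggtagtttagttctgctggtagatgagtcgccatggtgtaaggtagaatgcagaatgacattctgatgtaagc
Ceacam20, chr7:19965162-19965411, plus strand: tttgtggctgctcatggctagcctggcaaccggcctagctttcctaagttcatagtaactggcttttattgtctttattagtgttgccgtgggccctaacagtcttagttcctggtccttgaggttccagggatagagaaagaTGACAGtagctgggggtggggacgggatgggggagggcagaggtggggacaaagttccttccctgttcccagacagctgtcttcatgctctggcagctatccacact

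Mmp23, a gene for a membrane-bound metallopeptidase, had 2 listed starts, and the core began 65 bases before the outer one (155653384) and 159 bases before the inner one (155653290). It began 107 bases before the start of Ceacam20, a cell adhesion gene. In Tdrd1, a tudor domain gene of the germ line, it began 185 bases before the start and stood as its reverse complement CTGTCA. At Mmp23 the core lay inside the MACS 1.4 peak (chromosome 4, 155653110 to 155653525) but outside the narrower MACS2 peak (155653229 to 155653403). Tdrd1 and Ceacam20 had a MACS 1.4 peak and no MACS2 peak. Of the 17 windows that MACS 1.4 peaks overlapped, from 13 peaks, 5 held the core (29.4%), against 6293 of 32817 windows of all genes (19.2%). Some of those windows overlap each other, such as a pair at Mmp23. The longer PBX-MEIS decamer, which ends in the core, was in none of the 17, and in 73 of all windows (0.222%). With this few windows, the share with the core is a description of these letters and not of binding.

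Peaks were kept in separate groups by their distance from each other. Of the MACS2 peaks, 49 (11.7%, exact 95% interval 8.78 to 15.2) had another MACS2 peak within 10000 bp and fell into 9 clusters, and the other 370 were isolated. Of the MACS 1.4 peaks, 47 (3.68%, 2.71 to 4.86) were clustered, in 13 clusters, and 1231 were isolated. The limit fell in a gap of the distances: the widest spacing inside a MACS2 cluster was 9047 bp, in an array on chromosome 9, and the next was 14827 bp, between peaks near Gm40035 on chromosome 2. A further pair inside Sfi1 on chromosome 11 was 16029 bp apart.

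The fold enrichment that MACS2 gives is the authors' own value and ranks peaks within the list. Since the fold and its p-value both follow from the fragments at the summit and the local background, each peak's fragment number could be worked out from them. Every local background above the lowest one was, in addition, a whole number of scaled input fragments. It was counted in a window of the fragment length for 156 peaks, of 1 kb for 29 and of 10 kb for 5, while 229 peaks had the genome-wide background of 0.230 ChIP fragments. Under MACS2's usual scaling of the input to the depth of the ChIP library, 1 input fragment counted as 0.0455 ChIP fragments. The input thus held 22.0 fragments for each ChIP fragment.

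Isolated peaks rested on few fragments. Their summits held 4 to 254 fragments, with a median of 6 (quartiles 6 and 7), and 342 of the 370 (92.4%, 89.2 to 94.9) held 4 to 9. The folds of these peaks formed steps. At the genome-wide background, 4 fragments gave a fold of 4.07, 5 gave 4.88, 6 gave 5.69, 7 gave 6.51, 8 gave 7.32 and 9 gave 8.13. These 6 values were shared by 228 isolated peaks, with 74 at 5.69 and 78 at 6.51. The exact Poisson interval of 4 fragments is 1.09 to 10.2, that of 6 is 2.20 to 13.1, and that of 9 is 4.12 to 17.1. The ladder's lowest and highest steps thus overlapped in counting error, which limits how well these peaks can be ranked by fold.

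Among isolated peaks, the site of highest fold (chromosome 17, 4626191 to 4626693) lay 368 kb from Arid1b, a gene of the BAF complex that remodels nucleosomes. Its summit held 24 fragments (15.4 to 35.7) over a background of 6 input fragments, a fold of 19.6. The site at chromosome 1, 12644642 to 12644973, 47.4 kb from the heparan sulfate endosulfatase gene Sulf1, held 26 fragments (17.0 to 38.1) over 13 input fragments (fold 16.97). A site inside Plxdc2, a gene for a membrane protein with a plexin-like domain (chromosome 2, 16682963 to 16683261), held 14 fragments (7.65 to 23.5) over 7 input fragments (fold 11.4). These were the 3 isolated peaks whose fragments stood more than 40 times over their local background, at 88.0 times near Arid1b and 44.0 times at the other sites. Peaks with 9 fragments (4.12 to 17.1) at the genome-wide background had a ratio of 39.2, just under that limit. Their counting interval overlaps that of the Plxdc2 site, so the limit of 40 does not set that site apart. A site 125 kb from the BRN3A gene Pou4f1, a regulator of sensory neuron identity, held 11 fragments (5.49 to 19.7) over 9 input fragments (fold 8.52, ratio 26.9).

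**Figure D1:**
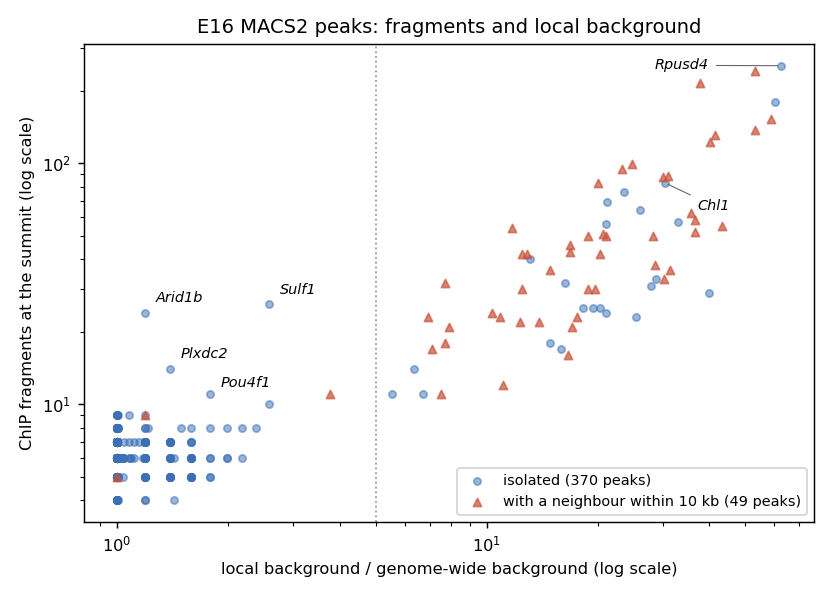
Fragments at the summit (log scale) of each E16 MACS2 peak against its local background as a multiple of the genome-wide background (log scale). Circles are the 370 isolated peaks, triangles are the 49 with a neighbour within 10 kb, and the dotted line marks 5 times the genome-wide background. The peaks near Arid1b (24 fragments) and Sulf1 (26) lie well above other peaks of low background. The peak inside Plxdc2 (14) lies closer to the rest, such as the one near Pou4f1 (11). Those near Rpusd4 and inside Chl1 lie among the clustered peaks.

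Other isolated peaks of high fold stood where the input was high as well. The peak 29.4 kb from the mitochondrial pseudouridine synthase gene Rpusd4 (chromosome 9, 35305099 to 35305628, fold 16.6) held 254 fragments, the most of any peak, over 316 input fragments, a ratio of 17.7. The peak 116 kb from Gm2244 (fold 12.2) held 180 over 304 input fragments and was the widest isolated peak, at 4068 bp. The peak 35.3 kb from Pak3, a p21-activated kinase gene (fold 12.0), held 76, and the peak 14.9 kb from Dpy19l2, a gene of sperm head formation (fold 11.9), held 69. Inside Chl1, a neural cell adhesion gene of the L1 family (chromosome 6, 103648947 to 103649364, fold 10.6), the summit held 83 fragments over 153 input fragments. The peaks 48.4 kb from the t-complex gene Tcp10c (fold 10.2), inside the centrosomal protein gene Sfi1 (fold 9.77) and 137 kb from the vesicle transport GTPase gene Rab10 (fold 9.35) held 40, 56 and 64 fragments.

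Local background separated these sites from the rest of the isolated peaks. No isolated peak had a background between 2.57 and 5.55 times the genome-wide value, and 5 times was taken as the limit after the values were seen. Above it lay 23 isolated peaks, with 11 to 254 fragments and ratios of 3.17 to 17.7 (median 7.55). Below it lay 347, with 4 to 26 fragments and ratios of 12.0 to 88.0 (median 26.1). The ratio divides by the background that made the split, so its difference between these groups is not a separate result. At the genome-wide background the fewest fragments listed, 4, already gave a ratio of 17.4. The median input count behind the 23 was 107 fragments. Others of the 23 lay inside Cdk5rap2, a centrosomal gene (fold 6.79, 57 fragments), and inside Cdk8, the Mediator kinase gene (5.02, 25 fragments). Peaks inside Litaf (4.61, 25 fragments), inside Mdga2 (4.48, 33 fragments) and inside the claudin family gene Cldn34d (2.96, 29 fragments) belonged to them too, and the last had the lowest fold of all isolated peaks. The genes in these sentences on background were named after their values were seen.

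The rest of the 20 isolated peaks of highest fold held 9 fragments each. At the genome-wide background, with a fold of 8.13, these lay 927 kb from Bcl11a, a zinc-finger repressor gene, 427 kb from Speer2, a gene of a testis-expressed family, and 153 bp from Cd3d, a T-cell receptor subunit. With the same fold, peaks lay inside Gabbr1, which encodes a GABA-B receptor subunit, and inside Grk5, a G protein-coupled receptor kinase gene. Slightly higher backgrounds gave 8.13 inside Jak1, a cytokine receptor kinase gene, 8.02 at 267 kb from Got2, the mitochondrial aspartate aminotransferase gene, and 7.86 at 9.51 kb from the ADP-ribosyltransferase gene Parp11. The counting intervals of these 8 peaks are the same and overlap that of a peak with 4 fragments (1.09 to 10.2).

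Clustered peaks showed more fragments over a higher background. Their median was 42 fragments, against 6 for isolated peaks, with a background of 18.8 times the genome-wide value against 1.00. Their median fold was 7.81 against 5.69, but fragments over background had a median ratio of 10.6 against 26.1, so the order of the groups differs between these measures. The caller raises fragments and background by 1 each before dividing, which the ratio does not. The ratio also divides by the background, which was higher in the clusters, so its lower median there is not a separate result. The highest ratio of a clustered peak was 33.0, at Gabrg1.

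The largest cluster was an array of 26 peaks over 38.5 kb where the assembled sequence of chromosome 9 begins (2999896 to 3038356), 297 kb from Alkbh8, a tRNA methyltransferase gene. Folds there ran from 4.40 to 15.2 and fragments from 11 to 137, and backgrounds followed fragments from 6.93 to 53.1 times the genome-wide value. MACS 1.4 listed 18 peaks in the same array. The highest fold of the whole list, 22.4, was in a cluster of 4 peaks on chromosome 2 (98662167 to 98667425), about 1030 kb from Lrrc4c, with 88 to 241 fragments and backgrounds of 29.9 to 58.8 times.

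**Figure D2:**
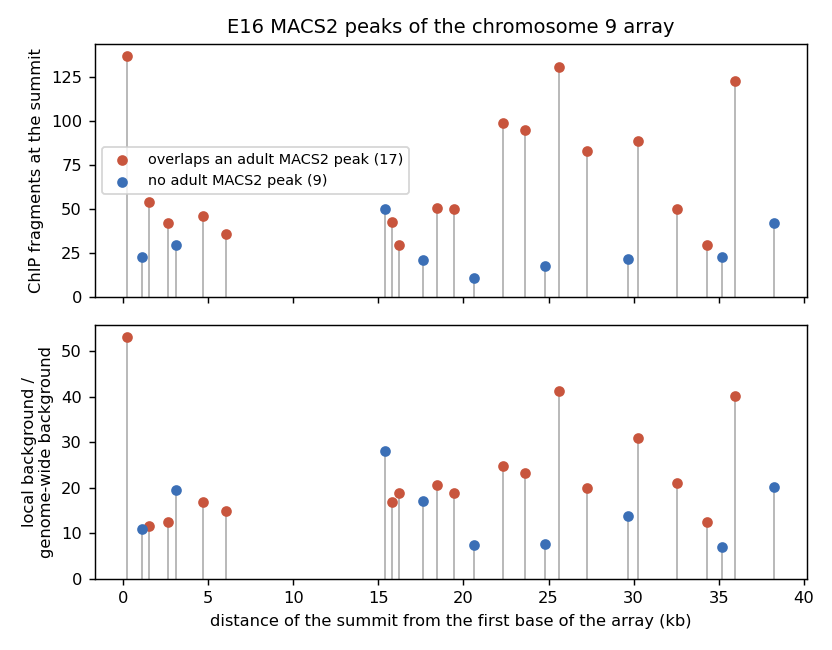
Fragments at the summit (top) and local background as a multiple of the genome-wide background (bottom) for the 26 E16 MACS2 peaks of the chromosome 9 array, by distance in kb from its first base. Each point is 1 peak, red where an adult MACS2 peak overlaps it (17) and blue where none does (9). Peaks with many fragments also have a high background.

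On chromosome 17, a cluster of 4 peaks (39843010 to 39848856, folds 4.52 to 6.86, 36 to 62 fragments) lay at Rn18s-rs5, a sequence related to 18S ribosomal RNA. That gene was overlapped by 3 of the peaks, 1 of which also overlapped AY036118, and the remaining peak, with the highest fold, lay before it. Another 4 peaks on that chromosome overlapped the long noncoding RNA gene 2700054A10Rik (13550605 to 13553298), with folds of 3.67 to 11.9 and 12 to 42 fragments. Inside Smo, the Hedgehog signal transducer, 3 peaks lay between 29747941 and 29749050 of chromosome 6, with folds of 6.44, 6.83 and 7.43 on 11, 17 and 24 fragments. MACS 1.4 listed those as a single peak with a score of 380.77. Pairs lay inside Sfi1 (folds 4.78 and 3.54), 92.8 kb from the potassium channel gene Kcnh5 (highest fold 6.02) and 21.4 kb from Ly6c2 (highest fold 6.27).

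The pair 56.3 kb from Gabrg1, a GABA-A receptor subunit gene (chromosome 5, 70693859 to 70694868), differed from the other clusters. Its summits held 9 and 5 fragments, their backgrounds were 1.19 and 1.00 times the lowest one, and MACS2 gave folds of 7.86 and 4.88. MACS 1.4 listed both peaks. In the 8 other clusters the background of every peak was at least 3.76 times the genome-wide value. Of the 13 MACS 1.4 clusters, 7 held no MACS2 peak. Among these were 4 peaks at Sfi1, at lower positions than the MACS2 pair, and pairs at Duxf3, Tmem267 and Zswim8.

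Both callers listed most of the MACS2 sites. Of the 419 MACS2 peaks, 401 (95.7%, 93.3 to 97.4) overlapped a MACS 1.4 peak by at least 1 bp, while 382 of the 1278 MACS 1.4 peaks (29.9%, 27.4 to 32.5) overlapped a MACS2 peak. Among isolated MACS2 peaks the share was 10 of 13 at 4 fragments, 68 of 71 at 5 and 103 of 113 at 6, and every peak with 7 or more was listed except the one inside Sfi1 with 56. The 18 MACS2 peaks missing from MACS 1.4 also included peaks inside Esr1, the oestrogen receptor gene, inside Rims2, a presynaptic active zone gene, and 1.12 kb from Irf4, an immune transcription factor gene.

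The share of MACS 1.4 peaks that MACS2 listed differed with the MACS 1.4 score, which is the −log10 of its p-value multiplied by 10. It was 18.2% for scores of 50 to 60 (99 peaks), 10.4% for 60 to 70 (643), 41.6% for 70 to 80 (274), 63.7% for 80 to 100 (168), 70.5% for 100 to 200 (61) and 100% for 200 or more (33). Across the 353 isolated MACS2 peaks with a MACS 1.4 peak, the −log10 p of MACS2 and that score had a Spearman rank correlation of 0.683. Both numbers come from the same pair of libraries, so this is not independent evidence.

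**Figure D3:**
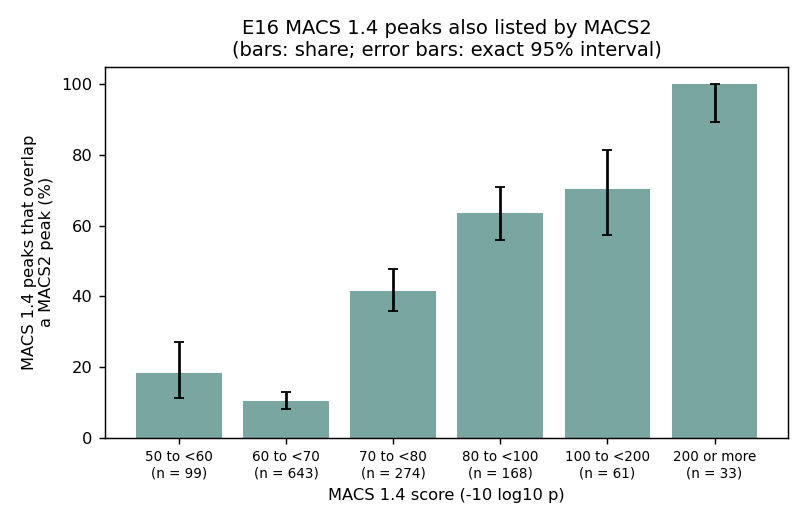
Share of E16 MACS 1.4 peaks that overlap an E16 MACS2 peak (%), by MACS 1.4 score, with exact 95% intervals as error bars and the number of peaks under each bar. The share is 10.4% for scores of 60 to 70 and 100% for scores of 200 or more.

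High-scoring peaks that MACS 1.4 alone listed were narrow. There were 18 with a score of 100 or more, of which 16 were under 300 bp wide (median 222 bp), against 20 of 76 such peaks that MACS2 also listed (median 534 bp). These sets were not matched for score. All 33 peaks with scores of 200 or more were shared, and their median width was 976 bp. The 61 peaks with scores of 100 to 200, shared or not, had a median width of 252 bp. The highest of the 18 lay 1.21 kb from Pspc1, a paraspeckle protein gene (chromosome 14, 56721131 to 56721334, score 171.6). Scores of 141.89 were given 15.1 kb from Sp4, a zinc-finger factor gene, 310 kb from Shox2, a homeobox gene of touch neurons, and 15.5 kb from the vomeronasal receptor gene Vmn1r72. Next came peaks inside Rbx1, a ubiquitin ligase subunit gene (138.97), and 21.5 kb from Gm30534 (134.82). Peaks inside Wdfy2 and Aknad1, 6.79 kb from Pebp1 and 89.1 kb from Tnks all had 127.51.

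Isolated summits lay inside protein-coding genes for 180 of 370 peaks (48.6%, 43.4 to 53.9), and such genes cover 37.9% of the sequence up to the last gene of each chromosome. That sequence was not limited to places where reads can be placed, so enrichment inside genes is not shown. Outside them the median distance to the nearest protein-coding gene was 83.6 kb, with 89 summits over 100 kb and 28 over 500 kb away. Of clustered summits 5 of 49 (10.2%, 3.40 to 22.2) lay inside such a gene, in Sfi1 or Smo. The interval of that share counts neighbouring peaks as separate and is too narrow. For MACS 1.4 the isolated share was 46.8% (44.0 to 49.6).

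Genes with a summit were long. The 178 protein-coding genes that held an isolated MACS2 summit had a median length of 110 kb, against 17.2 kb for all 21887. The share of genes with a summit was 0.0631% under 10 kb, 0.387% at 10 to 30 kb, 1.02% at 30 to 100 kb, 2.88% at 100 to 300 kb and 7.54% at 300 kb or more. Per 10 Mb of gene body the numbers were nearly level, at 1.54, 2.09, 1.88, 1.78 and 1.38 summits in the same order. Lrp1b, a 2060 kb gene for a receptor of the LDL receptor family, was the only gene with more than 1 isolated MACS2 summit. Its 3 peaks on chromosome 2 started at 42026527, 42189511 and 42551597, held 8, 8 and 7 fragments, and had folds of 6.71, 6.19 and 6.51. MACS 1.4 listed all of them and put 2 or more isolated peaks in 25 genes, with 3 each in Lrp1b, in Rims1, a presynaptic gene, and in the calcium channel gene Cacna1e.

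**Figure D4:**
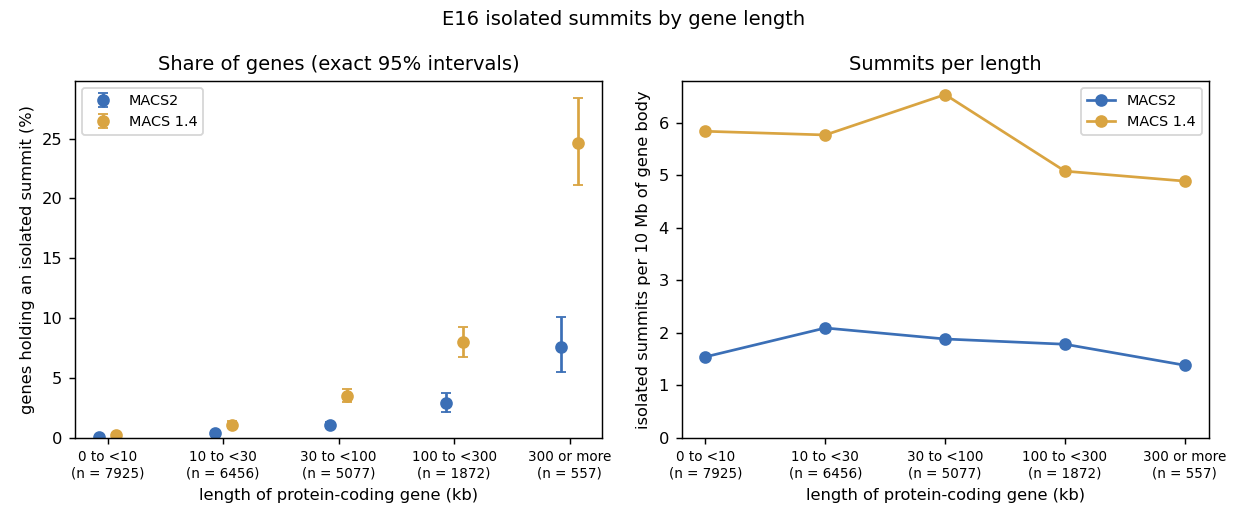
Left, share of protein-coding genes that hold an isolated E16 summit (%), by gene length in kb, with exact 95% intervals; right, isolated summits per 10 Mb of gene body in the same length classes. Blue is MACS2 and yellow is MACS 1.4, and the number of genes is under each class. The MACS2 share goes from 0.0631% to 7.54% while the number per length stays between 1.38 and 2.09.

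Genes were described by 14 lists, which were chosen with results of these data known. Of these, 10 hold TALE and Hox genes and genes of neurons, their axons, synapses and channels, and 4 hold markers of glia, fibroblasts and vessels, blood cells and muscle. A gene counted as having a summit where an isolated one fell between its ends or no more than 10000 bp beyond them. MACS2 placed a summit at 26 of 451 list genes (5.76%) and at 1.13% of all protein-coding genes, and MACS 1.4 at 63 of the list genes and at 3.55% of all protein-coding genes. The list genes were longer, with a median of 58.8 kb. Per 10 Mb of gene body they held 2.66 MACS2 summits (exact Poisson interval 1.74 to 3.90), against 1.71 over all protein-coding genes (1.48 to 1.98), and 7.06 MACS 1.4 peaks (5.49 to 8.93) against 5.51 (5.07 to 5.98). The 28 MACS2 peaks at list genes had a median of 6 fragments and a median fold of 5.67, against 6 and 5.69 for all isolated peaks. All but the one inside Chl1 held 5 to 9 fragments.

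Of the factors themselves and their partners, none of the 11 TALE homeobox genes and none of the 39 Hox genes had an isolated summit by either caller. With 1.13% (MACS2) and 3.55% (MACS 1.4) of all protein-coding genes having one, counts of 0 in lists of this size do not set them apart. Hox genes are also short, with a median of 3.74 kb. The nearest MACS2 summit was 6080 kb from Meis1, 4660 kb from Meis2 and 2880 kb from Meis3. The nearest isolated MACS 1.4 peak was 4430, 4660 and 243 kb away.

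Of 42 transcription factors of sensory neurons, MACS2 had Etv1, the ETS factor of proprioceptors (chromosome 12, 38815095 to 38815269, 7 fragments, fold 6.51), a share of 2.38%. MACS 1.4 listed the same site (score 81.64) and added sites inside Runx1, a factor of pain neurons (55.99), Zeb2 (62.57) and Bcl11b (63.57). Touch and proprioceptor genes had 3 of 33, which were Etv1, Cntnap2, an adhesion gene of myelinated axons (6 fragments, fold 5.69), and Scn8a, the sodium channel gene of nodes of Ranvier (6 fragments, 5.50). MACS 1.4 added Ntrk2, the BDNF receptor gene (65.68), the acid-sensing channel gene Asic2 (73.75) and Th, the tyrosine hydroxylase gene (61.97). Of 36 nociceptor, temperature and itch genes, MACS2 had Trpm3, a heat-sensing channel gene (6 fragments, 4.97). MACS 1.4 also had a peak 4019 bp from Trpm8, the cold-sensing channel gene (51.36). None of 25 genes of neurotrophic factor signalling had a MACS2 summit, and MACS 1.4 placed peaks in Ntrk2 and Sorcs1. Over all protein-coding genes the shares were 1.13% (MACS2) and 3.55% (MACS 1.4). MACS2 summits per 10 Mb of gene body were 2.14 (0.0542 to 11.9) for the transcription factors and 3.08 (0.0778 to 17.1) for the nociceptor, temperature and itch genes. They were 0 (0 to 7.75) for neurotrophic factor signalling. Each interval holds the 1.71 of all protein-coding genes, so these counts do not set the 3 lists apart.

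Axon guidance genes had 6 of 58 (10.3%). These were the netrin receptor genes Neo1 (6 fragments, fold 5.31) and Unc5a (5 fragments, 4.88), the ephrin system genes Efnb2 (5 fragments, 4.55) and Epha5 (6 fragments, 4.81), and the L1-family genes Nrcam (6 fragments, 5.13) and Chl1. The Chl1 site was the one of high background described above. MACS 1.4 had 16 of 58, and the 10 others included Slit1, Slit2 and Slit3 (scores 62.5 to 66.7), Sema3a (73.14), Plxna4 (69.54) and Dscam (55.5). The median length of these genes was 155 kb. They held 3.70 MACS2 summits per 10 Mb of gene body (exact Poisson interval 1.36 to 8.09), against 1.71 over all protein-coding genes, which lies within that interval. By MACS 1.4 they held 17 peaks inside, or 10.5 per 10 Mb, against 5.51 (5.07 to 5.98) over all protein-coding genes. No interval was worked out for the MACS 1.4 density of a single list.

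Synapse organization and adhesion genes had 5 of 63, and their median length was 349 kb. Besides Lrp1b these were Lrrtm4 and Lrrc4c, leucine-rich repeat genes of synapses (7 fragments and fold 6.51 each), Tenm4, a teneurin gene (6 fragments, 5.65), and Rims2 (6 fragments, 5.69). Their density was 2.01 per 10 Mb of gene body (0.805 to 4.13). Receptor genes for glutamate, GABA and glycine had 4 of 40, namely Gabbr1, the kainate receptor gene Grik4 (5 fragments, 4.88), the NMDA receptor gene Grin2b (6 fragments, 5.50) and the GABA-A subunit gene Gabrb1 (6 fragments, 5.31). Voltage-gated channel genes had 4 of 43, namely Scn8a, the calcium channel genes Cacna1e (6 fragments, 5.31) and Cacna1i (5 fragments, 4.88) and Kcnip1, a potassium channel partner (6 fragments, 5.69). Densities were 3.14 (0.858 to 8.03) for the receptor genes, 3.48 (0.948 to 8.87) for the channel genes and 4.57 (0.942 to 13.3) for the touch and proprioceptor genes. Each of these intervals also holds the 1.71 of all protein-coding genes. Of all MACS2 sites at list genes, those in Chl1 and at 42189511 in Lrp1b overlapped an adult peak.

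Each list of marker genes of other cells in or beside a ganglion had 1 gene with a summit. MACS2 and MACS 1.4 both placed a peak inside Mbp, the myelin basic protein gene (1 of 24 glial genes, 6 fragments, fold 5.69), and 1069 bp from Twist2 by the MACS2 summit (1 of 23 fibroblast and vessel genes, 6 fragments, 5.69). The peak near Cd3d was 1 of 22 immune and blood genes, and a peak inside Neb, the nebulin gene, was 1 of 15 muscle genes (6 fragments, 5.50). These shares were 4.17% to 6.67%, within the 0 to 10.3% of the neuronal lists, against 1.13% (MACS2) of all protein-coding genes. MACS2 summits per 10 Mb of gene body were 5.84 (0.148 to 32.6) for glial and 12.7 (0.321 to 70.6) for muscle genes. They were 0 for fibroblast and vessel genes (0 to 33.2) and for immune and blood genes (0 to 81.3). Each interval holds the 1.71 of all protein-coding genes, so 1 gene per list does not set these lists apart. What part other cells had in the peaks was not tested.

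Isolated peaks at gene starts were few in number. The share of the sequence within 1000 bp of a start was not worked out, so neither depletion nor enrichment is shown. Within 1000 bp of a start, or of a gene boundary where no start was given, lay 12 isolated MACS2 summits (3.24%, 1.69 to 5.60) and 39 MACS 1.4 peaks (3.17%, 2.26 to 4.31). The summit closest to a start was 23 bp after the inner start of Mmp23, at 155653290 (5 fragments, fold 4.55). After the start lay Ptk7, a receptor gene of planar cell polarity (479 bp), Cibar2 (501), the GTPase gene Rhoj (504), Heatr5a (511), Trp73, of the p53 family (656), and Gfi1b, a repressor gene of blood lineages (908). Before the start lay the summits at Tmem14a (position −706) and at the actin nucleation gene Arpc1b (−877). Summits near boundaries were at Batf2 (476 bp) and Tmem259 (956 bp). Folds of the summits named here ran from 4.40 to 6.51. None of the 12 overlapped an adult peak, and all but the one at Arpc1b were listed by MACS 1.4.

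For the 361 isolated summits on chromosomes with start windows, the median distance to the nearest listed start was 68.1 kb. Of these, 9 (2.49%) lay within 1 kb, 44 (12.2%) at 1 to 10 kb, 102 (28.3%) at 10 to 50 kb, 52 (14.4%) at 50 to 100 kb, 92 (25.5%) at 100 to 500 kb and 62 (17.2%) farther. By direction, 160 lay before and 201 after the start. The windows covered 17492 of the protein-coding genes, so some distances are too long.

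By chromosome, autosomes held 0.938 to 2.63 isolated MACS2 peaks per 10 Mb (median 1.47). Per 10 Mb, chromosome 17 had the most (25 peaks, 2.63, exact Poisson interval 1.71 to 3.89). It held the sites near Arid1b and Tcp10c and inside Gabbr1. Chromosome 3 had the fewest of the autosomes per 10 Mb (15 peaks, 0.938, 0.525 to 1.54). The X chromosome held 8 (0.469, 0.202 to 0.926), among them those near Pak3 and inside Cldn34d, and the Y chromosome held 2 (0.220, 0.0266 to 0.795). In the MACS 1.4 list the autosomes ran from 3.33 to 7.27, while X had 1.29 (0.809 to 1.95) and Y 0.220. X and Y thus lay below every autosome by both callers. What part the sex of the embryos and the mappable share of each chromosome had in this was not tested.

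**Figure D5:**
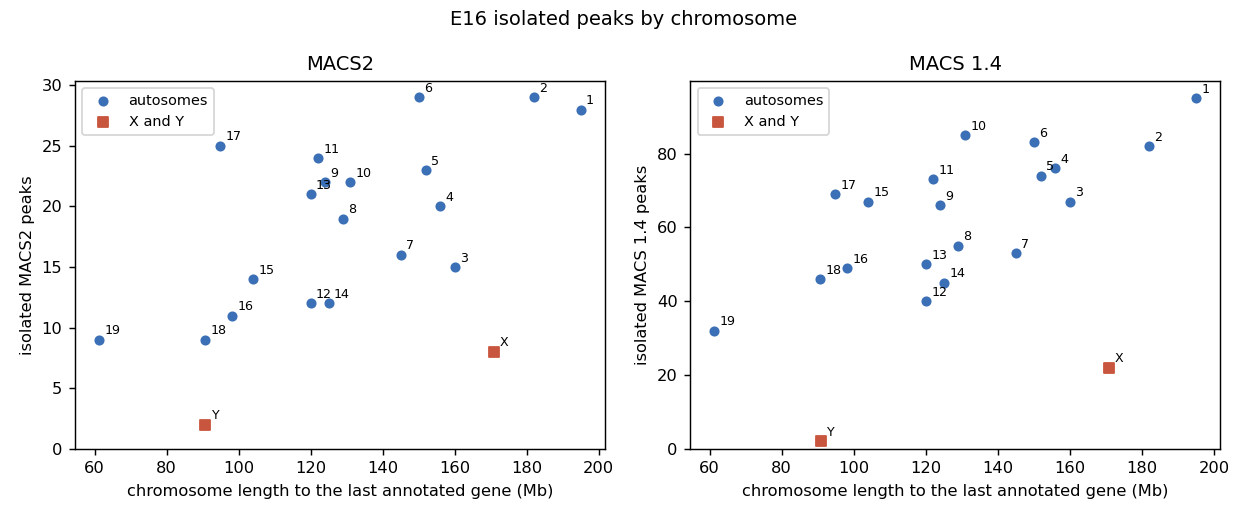
Number of isolated E16 peaks on each chromosome against its length up to the last annotated gene (Mb), for MACS2 (left) and MACS 1.4 (right). Circles are autosomes and squares are X and Y, with the chromosome beside each. X holds 8 MACS2 peaks and Y holds 2, fewer for their length than any autosome.

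The adult list came from ChIP and input libraries of adult C57BL/6 ganglia, made with the same antibody and called separately. Set against it, 21 isolated E16 peaks (5.68%, 3.55 to 8.55) and 25 clustered peaks (51.0%, 36.3 to 65.6) overlapped an adult MACS2 peak. Of these 25, 17 lay in the chromosome 9 array and 4 in the cluster on chromosome 2. The interval of the clustered share counts such neighbours as separate and is too narrow. Of the isolated peaks with high background 11 of 23 overlapped an adult MACS2 peak (47.8%, 26.8 to 69.4), and of those with low background 10 of 347 (2.88%, 1.39 to 5.24). The latter included the sites near Arid1b, Sulf1, Pou4f1, Bcl11a and Parp11 and inside Plxdc2, whose folds in the adult list were 152.51, 28.8, 49.2, 54.3, 6.60 and 26.6. Adult and E16 folds come from separate libraries without given read totals, so they do not compare the strength of binding between the ages. Among isolated peaks with 4 to 6 fragments, none of 197 overlapped an adult peak.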

How the data were processed

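Sonicated nuclear chromatin of C57BL/6 dorsal root ganglia at E16 was immunoprecipitated, and an Illumina ChIP kit was used for the libraries, per the labels' protocols. The submitters' processing notes name bcl2fastq 2.17, FastQC, the mm10 build and, for peak calling, MACS2 2.1.1 and MACS 1.4.2. How reads were aligned, duplicate and multiply placed reads treated and the callers set is not given in the sources used here. Each of these can change fragment numbers, above all in repeats. The MACS2 list deposited by the authors gives each peak's fold (a ratio over the local background), −log10 p, −log10 q, a score and the summit as an offset from the peak's start. The MACS 1.4 list deposited by the authors gives positions and a score, the −log10 p multiplied by 10. No column was left out.

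Fragments and background were solved together from fold, (fragments + 1) / (background + 1), and the Poisson −log10 p, within a tolerance of 0.001, and the script was tested on simulated data. The largest error was 0.000171, and 1 peak allowed a second whole number. The smallest peak width, 175 bp, was taken as the fragment length. A background counted as a whole number of input fragments where it differed from one by less than about 3 times the rounding error of the deposited fold. A peak was clustered where another of its list lay within 10000 bp, and an overlap of 1 bp made peaks of different lists shared. The middle of a MACS 1.4 peak stood for its summit. The 95% intervals are exact, Clopper-Pearson for shares and Poisson for fragment numbers. They count each peak as separate, which peaks of 1 cluster are not, so intervals of shares that involve clustered peaks can be too narrow. Read totals are not given in the sources used here.

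Genes came from RefSeq on GRCm38.p6, with 49943 genes on assembled chromosomes, 21887 of them protein-coding. Start windows numbered 32851 and held none on chromosome 18. All 451 genes of 14 lists were found, 1 of them by an older symbol. Motifs were searched in the start windows alone. The sequence of peaks outside them, and exons and introns, were not analysed here. The text names the genes nearest to the 20 isolated MACS2 peaks of highest fold, all MACS2 clusters, list genes with an isolated MACS2 summit, genes with 2 or more, genes with a summit within 1000 bp of the start, the 10 highest MACS 1.4 peaks without a MACS2 peak, and Meis1, Meis2 and Meis3. Other genes were named after their values were seen, and 1 gene that the rule names is not reported here. The peaks, the lists and the tests were chosen with earlier results of these data known. Results were recomputed with the MACS 1.4 list, with stricter lists (a minimum −log10 q of 3, fold of 6 or MACS 1.4 score of 100) and with other clustering distances, overlaps and gene windows. Python 3.11.15 was used with numpy 2.4.6, pandas 2.3.3, scipy 1.17.1 and matplotlib 3.10.9.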

Additional observations from a re-analysis of the deposited data

How the results depend on the processing

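No paired analysis was possible because each group held 1 library. Of 38 other settings tried over 10 results, 23 left the value within 1.5 times for counts, or within its interval for shares and medians, and 15 moved it. With MACS 1.4 in place of MACS2, isolated summits near gene starts numbered 39 in place of 12, list genes with a summit 63 in place of 26 and the share of protein-coding genes was 3.55% in place of 1.13%, while the share of isolated E16 peaks in the adult list was 3.25% in place of 5.68%. A stricter −log10 q of at least 3 gave a median fold of 6.34 (5.69 before), 16 list genes and 0.804% of protein-coding genes. A fold of at least 6 gave 31 clustered peaks (49 before), 99.5% of MACS2 peaks in MACS 1.4 (95.7% before) and an adult overlap of 11.2%. A MACS 1.4 score of at least 100 raised the share also listed by MACS2 from 29.9% to 80.9%. Counting all annotated genes put 56.5% of isolated summits inside a gene (48.6% before), 5000 bp around starts gave 39 summits, and gene bodies alone or windows of 50000 bp gave 0.813% and 2.38% of protein-coding genes.

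With 1 ChIP library, a background of 0.230 fragments and a median of 6 fragments at the summit, a site missing from the list can be one just under the threshold. No value here has a replicate error. The depth deduced for the input assumes MACS2's usual scaling. How reads of repeated sequence were placed is not given in the sources used here. Its part in sites over a high input background, the chromosome 9 array included, was not tested.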

Other observations

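Of 1005 miRNA hairpins in the RefSeq table, 2 lay within 10 kb of an isolated MACS2 summit and 7 within 10 kb of an isolated MACS 1.4 peak. All sequence up to the last genes held 1.36 isolated MACS2 and 4.52 isolated MACS 1.4 peaks per 10 Mb. Beside these densities, counts of 2 and 7 do not set the hairpins apart. The hairpins near a MACS2 summit were Mir3473c (4474 bp away, fold 5.87) and Mir8104 (5691 bp, fold 5.50), both also near a MACS 1.4 peak. The nearest MACS 1.4 peak lay 488 bp from Mir7234, with a score of 66.1 and no MACS2 peak.

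Some MACS 1.4 peaks covered whole start windows, 5 in all. A single peak on the X chromosome (73786704 to 73787258, score 75.41) covered the windows of Idh3g, a subunit of mitochondrial isocitrate dehydrogenase, and Ssr4, a subunit of the translocon-associated complex, which start 126 bp apart on opposite strands. Neither window held the TGACAG core.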
